A study of Mus musculus with 6 samples.

Results

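ATF4 is a transcription factor of the integrated stress response, and 10 genes of that response were examined here: the factors *Atf4*, *Atf5*, *Atf3*, *Ddit3*, *Cebpb*, *Cebpg* and *Nupr1*, the pseudokinase *Trib3*, and the enzymes *Asns* and *Chac1*. All 10 were matched by symbol among the 56748 genes listed in the deposited table, and all 10 passed the filter on low counts. The libraries came from naïve CD4 T cells of wild-type C57BL/6 mice, labelled as splenocytes and, per the study's methods, taken from spleen and lymph nodes at 6 to 10 weeks of age. The cells were held for 3 days under Treg polarizing conditions, which here meant stimulation through CD3 and CD28 with IL-2, TGF-β and antibodies that block IFNγ and IL-4, and they were not sorted before RNA was taken. Antisense oligonucleotides (ASOs), short synthetic strands that pair with a matching RNA, were added at 10 μM, either with a scrambled sequence (3 libraries) or directed at *Pgam* (3 libraries). Total counts were 17588755, 18032805 and 16231127 in scrambled ASO replicates 1, 2 and 3, and 16589933, 15860476 and 16803881 in Pgam ASO replicates 1, 2 and 3. Levels are given in CPM, a count relative to the TMM-scaled library size, and a positive log2 fold change means a higher level with the Pgam ASO label.

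The targeted genes were examined first. *Pgam1* stood at 598 CPM, 477 CPM and 706 CPM in scrambled ASO replicates 1, 2 and 3 and at 657 CPM, 660 CPM and 706 CPM in Pgam ASO replicates 1, 2 and 3. *Pgam2* stood at 5.22 CPM, 6.74 CPM and 2.85 CPM in the scrambled ASO libraries and at 2.98 CPM, 2.69 CPM and 2.60 CPM in the Pgam ASO libraries. The groups overlapped for both genes, and neither passed edgeR's quasi-likelihood test under Benjamini-Hochberg adjustment (adjusted p = 0.331 for *Pgam1* and 0.0854 for *Pgam2*). RNA levels of the target therefore did not separate the groups, and the direction of each difference given here rests on the labels: "Pgam ASO" means the libraries labelled so throughout.

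In the integrated stress response, kinases that sense amino acid shortage, misfolded protein in the endoplasmic reticulum, heme shortage or double-stranded RNA phosphorylate the translation factor eIF2 alpha. General protein synthesis then falls while the *Atf4* message is translated more, so that much of the control of ATF4 lies beyond its RNA level. ATF4 pairs with C/EBP and other bZIP proteins at composite DNA elements and raises genes for amino acid synthesis, amino acid import and tRNA charging, and, under lasting stress, genes tied to cell death.

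Of the 10 genes, 4 were called higher in the Pgam ASO libraries at an adjusted p under 0.05, against 8.03% of the 14936 genes tested. They were *Atf4*, *Atf3*, *Asns* and *Chac1*. None was called lower (0 of 10 with edgeR, DESeq2 and limma-voom, and 0 at an unadjusted p under 0.05 with edgeR), against 9.15% of all tested genes, and 17.2% of tested genes were called in either direction. The groups did not overlap, with Pgam ASO higher, for 5 of the 10, the 4 called genes and *Atf5*, against 19.7% of all tested genes. The median log2 fold change of the 10 was 0.26, and that of all tested genes was -0.01. Bulk RNA cannot tell fewer cells of a type from less RNA per cell, which holds for every level given here.

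**Figure D1:**
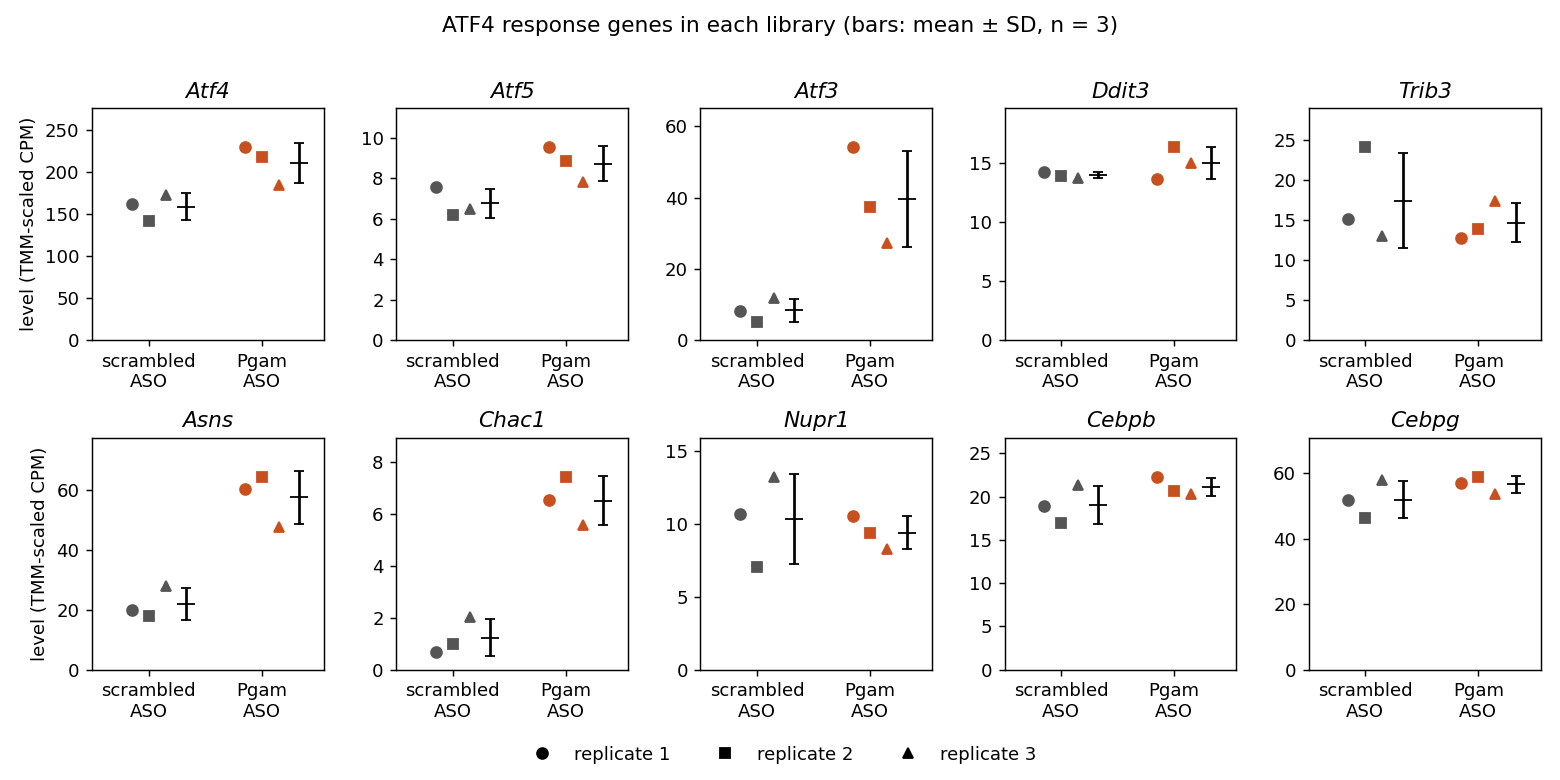
Level of each of the 10 genes in TMM-scaled CPM (vertical axis, from 0) in the 3 scrambled ASO and 3 Pgam ASO libraries, with the marker shape giving the replicate and the bar the mean ± SD of 3. *Atf3*, *Asns* and *Chac1* show gaps between the groups that are wide for their level, *Atf4* a narrow one for its level, and *Ddit3*, *Trib3*, *Nupr1*, *Cebpb* and *Cebpg* overlap.

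*Atf4* (ENSMUSG00000042406) spans bases 80255184 to 80257541 of chromosome 15 on the forward strand (GRCm38, GENCODE M21). It stood at 161 CPM, 142 CPM and 173 CPM in scrambled ASO replicates 1, 2 and 3 and at 229 CPM, 218 CPM and 184 CPM in Pgam ASO replicates 1, 2 and 3. All Pgam ASO libraries lay above all scrambled ASO libraries, but Pgam ASO replicate 3 exceeded scrambled ASO replicate 3 by little. The means were 159 CPM ± 15.8 and 210 CPM ± 23.7 (SD, n = 3 each), a log2 fold change of 0.41 with a standard error of 0.11. It passed edgeR's quasi-likelihood test under Benjamini-Hochberg adjustment (adjusted p = 0.0315), with a range of 0.000642 to 0.132 over 13 alternatives. The call was lost in 5 of the alternatives: the adjusted p was 0.0759 with a block for the replicate number, 0.0994 without scrambled ASO replicate 1, 0.0705 without scrambled ASO replicate 2, 0.109 without Pgam ASO replicate 1 and 0.132 without Pgam ASO replicate 2. The log2 fold change without 1 library ran from 0.33 to 0.50.

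*Atf3* encodes a bZIP factor induced by many stresses and known as a target of ATF4. It stood at 8.26 CPM, 5.12 CPM and 11.7 CPM in scrambled ASO replicates 1, 2 and 3 and at 54.2 CPM, 37.3 CPM and 27.3 CPM in Pgam ASO replicates 1, 2 and 3. Every Pgam ASO library exceeded every scrambled ASO library, and the Pgam ASO libraries were themselves spread widely, with replicate 1 highest. The log2 fold change was 2.25 with a standard error of 0.35, a 4.76-fold higher level (adjusted p = 0.00953, edgeR's quasi-likelihood test under Benjamini-Hochberg adjustment). Without scrambled ASO replicate 1 the log2 fold change was 2.24 and the adjusted p 0.0509, and over 13 alternatives the adjusted p ran from 9.5e-06 to 0.0509.

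*Asns* encodes asparagine synthetase, which makes asparagine from aspartate and glutamine. It stood at 19.9 CPM, 17.9 CPM and 28.0 CPM in scrambled ASO replicates 1, 2 and 3 and at 60.3 CPM, 64.4 CPM and 47.7 CPM in Pgam ASO replicates 1, 2 and 3. The lowest Pgam ASO library lay well above the highest scrambled ASO library. The log2 fold change was 1.39 with a standard error of 0.17, a 2.62-fold higher level, and it passed edgeR's quasi-likelihood test under Benjamini-Hochberg adjustment (adjusted p = 0.00186). It passed with each library left out in turn, with log2 fold changes of 1.26 to 1.60.

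*Chac1* encodes an enzyme that breaks down glutathione. Its counts were low, at 12, 18 and 33 in scrambled ASO replicates 1, 2 and 3 and 105, 116 and 94 in Pgam ASO replicates 1, 2 and 3. In CPM these were 0.674, 0.970 and 2.04 against 6.51, 7.43 and 5.55. Scrambled ASO replicate 3 was the highest of its group and still below every Pgam ASO library. The log2 fold change was 2.41 with a standard error of 0.36, a 5.32-fold higher level (adjusted p = 0.00371, edgeR's quasi-likelihood test under Benjamini-Hochberg adjustment). It passed with each library left out, and the log2 fold change then ran from 2.11 to 2.97.

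The remaining bZIP factors did not pass. *Atf5*, an ATF4 relative that also serves mitochondrial stress signalling, stood at 7.58 CPM, 6.20 CPM and 6.49 CPM in scrambled ASO replicates 1, 2 and 3 and at 9.55 CPM, 8.84 CPM and 7.80 CPM in Pgam ASO replicates 1, 2 and 3. The groups did not overlap, by a narrow margin between scrambled ASO replicate 1 and Pgam ASO replicate 3, and the log2 fold change was 0.37 with a standard error of 0.18 (adjusted p = 0.165 by edgeR's quasi-likelihood test under Benjamini-Hochberg adjustment). *Ddit3* encodes CHOP, a factor tied to death under lasting stress. It stood at 14.2 CPM, 13.9 CPM and 13.7 CPM in the scrambled ASO libraries and at 13.6 CPM, 16.3 CPM and 14.9 CPM in the Pgam ASO libraries. Pgam ASO replicate 1 was the lowest of all 6, so the groups overlapped, and the log2 fold change was 0.10 with a standard error of 0.13. *Cebpb* and *Cebpg* encode C/EBP proteins that can pair with ATF4. *Cebpb* ran from 16.9 CPM to 21.3 CPM in the scrambled ASO libraries and from 20.3 CPM to 22.3 CPM in the Pgam ASO libraries, with a log2 fold change of 0.15. *Cebpg* ran from 46.3 CPM to 57.9 CPM and from 53.8 CPM to 59.1 CPM, with a log2 fold change of 0.12. The groups overlapped for both. *Cebpb* shares 19.2% of its 31-base stretches with *Tmem189*, between which reads have to be divided, so its level is uncertain. With *Tmem189* added, its log2 fold change was 0.31 (adjusted p = 0.114 by edgeR's quasi-likelihood test under Benjamini-Hochberg adjustment, within a range of 0.114 to 0.785 over 14 alternatives).

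*Trib3* and *Nupr1* also overlapped between the groups. *Trib3* encodes a pseudokinase that binds ATF4 and limits its activity. It stood at 15.1 CPM, 24.1 CPM and 12.9 CPM in scrambled ASO replicates 1, 2 and 3 and at 12.7 CPM, 13.8 CPM and 17.4 CPM in Pgam ASO replicates 1, 2 and 3. Scrambled ASO replicate 2 stood above the other 5, and the log2 fold change of -0.25 became 0.06 without it. *Nupr1* encodes a small stress-induced chromatin protein. It stood at 10.7 CPM, 7.06 CPM and 13.2 CPM in the scrambled ASO libraries and at 10.5 CPM, 9.35 CPM and 8.27 CPM in the Pgam ASO libraries. The scrambled ASO libraries spanned the whole Pgam ASO range, and the log2 fold change of -0.13 became 0.08 without scrambled ASO replicate 3.

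**Figure D2:**
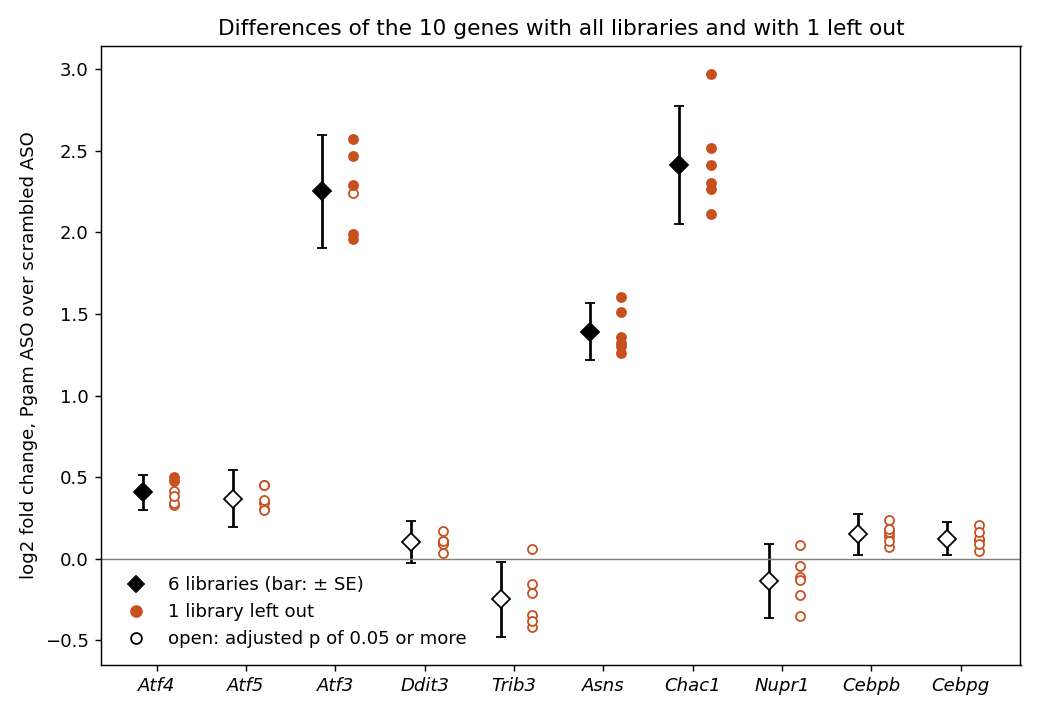
Log2 fold change of each gene (vertical axis) with all 6 libraries (diamonds, bars ± SE) and with each library left out (circles), filled where the adjusted p was under 0.05. *Asns* and *Chac1* were filled throughout, *Atf3* lost the call in 1 setting and *Atf4* in 4, and *Trib3* and *Nupr1* crossed 0.

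Scrambled ASO replicate 3 was the highest of its group for all 4 called genes, and Pgam ASO replicate 3 the lowest of its group for all 4. The same positions were common among the 1199 genes called higher, at 73.6% for scrambled ASO replicate 3 and 71.1% for Pgam ASO replicate 3. Whether this reflects something other than the treatment in those libraries was not tested.

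To compare levels between genes, CPM were divided by the length of the longest annotated transcript in kilobases. In the scrambled ASO libraries, *Atf4* was the most abundant at 78.5 CPM per kilobase ± 7.80 (SD, n = 3), far above *Ddit3* at 14.4 CPM per kilobase ± 0.251. *Ddit3*, *Cebpb*, *Cebpg*, *Asns* and *Trib3* followed in that order, and each overlapped its neighbour in range. *Nupr1*, *Atf3* and *Atf5* overlapped too, at 4.22, 4.21 and 3.72 CPM per kilobase, and *Chac1* was lowest at 0.750 CPM per kilobase ± 0.439. In the Pgam ASO libraries *Asns* reached 28.5 CPM per kilobase ± 4.34 and *Atf3* 20.0 CPM per kilobase ± 6.84, while *Atf4* stood at 104 CPM per kilobase ± 11.7.

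Each gene was also set against *Atf4* within the same library, as the log2 of the ratio of their CPM. The ratio of *Asns* was -3.01, -2.98 and -2.62 in scrambled ASO replicates 1, 2 and 3 and -1.93, -1.76 and -1.95 in Pgam ASO replicates 1, 2 and 3. The mean ratio of *Atf3* was -4.32 ± 0.45 (SD, n = 3) against -2.46 ± 0.34, and that of *Chac1* was -7.16 ± 0.75 against -5.02 ± 0.14. These 3 of 9 ratios were higher in every Pgam ASO library than in every scrambled ASO library, against 2.74% of 14880 genes set against *Atf4* in the same way. The ratios of *Nupr1*, *Cebpb* and *Cebpg* were lower in every Pgam ASO library, 3 of 9 against 48.3% of genes, so this count is not above that of genes at large. The ratios of *Atf5*, *Ddit3* and *Trib3* overlapped. An exact two-sided permutation test over 3 against 3 libraries gave p = 0.1 for each ratio without overlap, the smallest p this design allows.

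**Figure D3:**
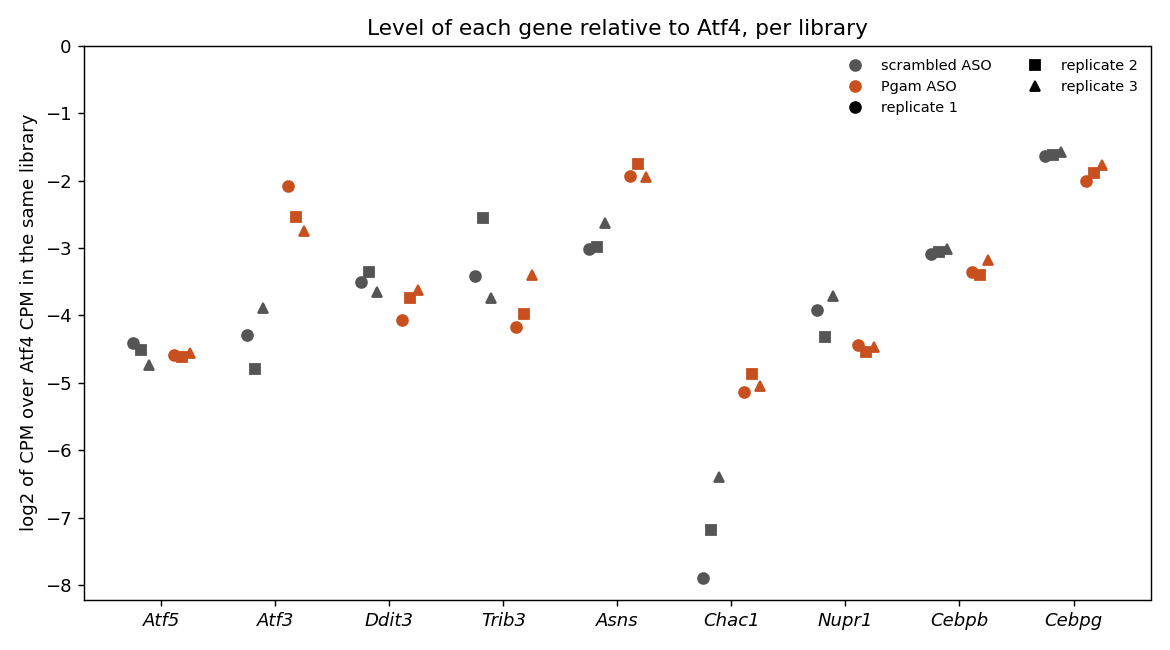
Log2 of each gene's CPM over that of *Atf4* in the same library (vertical axis), for scrambled ASO (grey) and Pgam ASO (orange), with the marker shape giving the replicate. *Atf3*, *Asns* and *Chac1* were higher relative to *Atf4* in all Pgam ASO libraries, with mean differences of 1.86, 0.998 and 2.14.

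Promoter windows from RefSeq (GRCm38.p6, 250 bases before to 50 bases after each start) were at hand for all 10 genes, with 2 windows for *Atf5*. They were searched on both strands for the C/EBP-ATF composite TGATGNAA, in which N is any base, and its form TGATGCAA, which is contained in it. TGATGNAA was present in the windows of 5 of the 10 genes, *Atf3*, *Asns*, *Chac1*, *Nupr1* and *Trib3*, and in 3.97% of all 32851 windows. TGATGCAA was present for *Atf3*, *Chac1* and *Nupr1* and in 0.895% of all windows. Of the 5 genes with a match, 3 were called higher and 2, *Nupr1* and *Trib3*, were not, while *Atf4* was called and had none. The cyclic AMP element TGACGTCA was found for 0 of the 10, and in 1.79% of all windows. CCACG, the end of the endoplasmic reticulum stress element, was found for 7 of the 10, and in 32.8% of all windows. The match began 193 bases before the start in *Chac1*, 110 bases before it in both *Atf3* and *Nupr1*, 23 bases before it in *Asns*, and 14 bases after it in *Trib3*. A match is a description of letters, not a binding site or a cause. The 250 bases before the start are shown for the 3 called genes with a match and for *Nupr1*, which had the same 8 letters as *Chac1* and *Atf3* without a call, with TGATGNAA or its reverse complement in capitals. They lie at chr2:119350992-119351241 (forward strand, *Chac1*), chr1:191183334-191183583 (reverse strand, *Atf3*), chr6:7693210-7693459 (reverse strand, *Asns*) and chr7:126625471-126625720 (reverse strand, *Nupr1*).
Chac1: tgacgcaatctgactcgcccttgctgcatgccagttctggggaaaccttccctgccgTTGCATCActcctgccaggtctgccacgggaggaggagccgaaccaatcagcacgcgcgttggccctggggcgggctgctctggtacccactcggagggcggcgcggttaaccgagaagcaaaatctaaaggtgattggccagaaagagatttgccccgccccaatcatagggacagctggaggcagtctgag
Atf3: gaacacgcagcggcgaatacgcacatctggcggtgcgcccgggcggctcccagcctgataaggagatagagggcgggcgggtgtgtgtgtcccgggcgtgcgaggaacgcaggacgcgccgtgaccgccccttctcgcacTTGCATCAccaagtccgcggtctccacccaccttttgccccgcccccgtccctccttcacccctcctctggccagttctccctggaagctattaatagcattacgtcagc
Asns: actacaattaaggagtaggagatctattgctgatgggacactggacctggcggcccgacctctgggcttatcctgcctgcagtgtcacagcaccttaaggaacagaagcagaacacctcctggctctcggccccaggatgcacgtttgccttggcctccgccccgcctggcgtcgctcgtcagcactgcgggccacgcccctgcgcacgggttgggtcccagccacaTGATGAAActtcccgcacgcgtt
Nupr1: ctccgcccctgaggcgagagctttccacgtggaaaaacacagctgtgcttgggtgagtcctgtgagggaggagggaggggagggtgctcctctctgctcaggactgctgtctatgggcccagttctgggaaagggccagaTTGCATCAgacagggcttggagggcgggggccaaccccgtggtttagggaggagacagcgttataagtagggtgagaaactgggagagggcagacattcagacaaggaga

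Counts of the related lists that follow are to be read against 8.03% of all tested genes called higher and 9.15% called lower. Upstream of ATF4, the 4 eIF2 alpha kinases gave 0 genes higher (1 at an unadjusted p under 0.05 with edgeR, 0 with DESeq2 and limma-voom) and 1 lower, with a median log2 fold change of 0.04. *Eif2ak3* encodes PERK, the kinase of the endoplasmic reticulum. It stood at 51.5 CPM, 62.4 CPM and 48.2 CPM in scrambled ASO replicates 1, 2 and 3 and at 34.3 CPM, 31.8 CPM and 35.3 CPM in Pgam ASO replicates 1, 2 and 3. The groups were well apart, with a log2 fold change of -0.68 and a standard error of 0.11 (adjusted p = 0.00631, edgeR's quasi-likelihood test under Benjamini-Hochberg adjustment), and the adjusted p was 0.0536 without Pgam ASO replicate 2. *Eif2ak4* (GCN2, which senses uncharged tRNA), *Eif2ak2* (PKR, which binds double-stranded RNA) and *Eif2ak1* (HRI, which senses heme shortage) had log2 fold changes of 0.18, 0.22 and -0.10 and did not pass. RNA levels do not show kinase activity, which was not measured here.

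Of 10 genes for eIF2, its exchange factor and its phosphatase, 4 were called higher and 1 lower, with a median log2 fold change of 0.34. The subunit genes *Eif2b3*, *Eif2s2* and *Eif2s1* rose with log2 fold changes of 0.66, 0.54 and 0.40, and *Eif2b5* with 0.34. *Ppp1r15a* encodes GADD34, which returns eIF2 alpha to its unphosphorylated form and is itself an ATF4 response gene. It stood at 25.9 CPM, 27.3 CPM and 26.7 CPM in the scrambled ASO libraries and at 18.2 CPM, 14.8 CPM and 17.1 CPM in the Pgam ASO libraries. It was thus lower in every Pgam ASO library, opposite in direction to *Asns* and *Chac1*, with a log2 fold change of -0.67 (adjusted p = 0.00718, edgeR's quasi-likelihood test under Benjamini-Hochberg adjustment). Without Pgam ASO replicate 2 its adjusted p was 0.0524, and 0 genes of this list passed in either direction. The count called higher was 1 without scrambled ASO replicate 1, 2 without scrambled ASO replicate 2 or Pgam ASO replicate 1, 6 without scrambled ASO replicate 3 and 8 without Pgam ASO replicate 3.

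Among 8 genes for ATF4 turnover and partners, 1 was higher and 2 were lower, with a median log2 fold change of -0.12. *Batf3*, a bZIP factor, stood at 11.7 CPM, 6.41 CPM and 18.5 CPM in scrambled ASO replicates 1, 2 and 3 and at 72.7 CPM, 52.5 CPM and 54.2 CPM in Pgam ASO replicates 1, 2 and 3. Its log2 fold change was 2.30, close in size to that of *Atf3* at 2.25, and its adjusted p by edgeR's quasi-likelihood test under Benjamini-Hochberg adjustment was 0.0109, or 0.0564 without scrambled ASO replicate 1 and 0.0518 with no filter on low counts. *Trib2*, a relative of *Trib3*, fell from 45.5 CPM ± 24.7 to 7.28 CPM ± 4.61 (SD, n = 3 each). The log2 fold change of *Trib2* was -2.64 and that of *Jdp2*, a repressor of the bZIP family, was -0.69. Both lost the call without scrambled ASO replicate 1, scrambled ASO replicate 2, Pgam ASO replicate 1 or Pgam ASO replicate 2, with adjusted p-values by edgeR's quasi-likelihood test under Benjamini-Hochberg adjustment of 0.0818 to 0.151. With a block for the replicate number both lost it too (0.0894 for *Trib2*, 0.0652 for *Jdp2*), and *Trib2* also with no filter on low counts (0.141). The count of the list was 3 lower without scrambled ASO replicate 3, and 2 higher without Pgam ASO replicate 3.

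Of the 4 further C/EBP genes, 2 were tested and 0 passed with edgeR, DESeq2 or limma-voom (0 at an unadjusted p under 0.05 with edgeR), with a median log2 fold change of 0.31. *Cebpz* and *Cebpd* had log2 fold changes of 0.17 and 0.44, while *Cebpa* and *Cebpe* stayed under 0.3 CPM in every library and did not pass the filter. Of 9 other ATF and CREB genes, with a median log2 fold change of -0.08, only *Creb3l2* was called by edgeR. It was lower, with a log2 fold change of -0.61, and passed with each library left out. The edgeR count was 1 higher and 3 lower without scrambled ASO replicate 3, and 1 higher and 1 lower without Pgam ASO replicate 3, while DESeq2 called 1 higher and 2 lower. Of 10 AP-1 genes, whose proteins can pair with ATF3, 3 were higher and 2 lower, with a median log2 fold change of 0.28, against 8.03% and 9.15% of all tested genes. Of these 5 calls, *Batf3* and *Jdp2* were already counted among the ATF4 partners. The count became 1 higher and 1 lower without scrambled ASO replicate 1 or Pgam ASO replicate 2, 2 higher and 1 lower without scrambled ASO replicate 2, and 3 higher and 1 lower without Pgam ASO replicate 1. *Jun* fell from 60.1 CPM ± 5.84 to 31.1 CPM ± 2.54 (SD, n = 3 each), a log2 fold change of -0.95 that held with each library left out. *Batf* rose with a log2 fold change of 0.75, and its adjusted p was 0.0569 by edgeR's quasi-likelihood test under Benjamini-Hochberg adjustment without Pgam ASO replicate 2. *Fos* had a log2 fold change of 1.13 with overlapping groups and passed in only 1 of 6 settings that leave out a library, the one without Pgam ASO replicate 1.

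Known targets of ATF4 in amino acid supply came next. Against 8.03% of all tested genes called higher, of 7 genes for serine, glycine and folate metabolism, 5 of the 6 tested were called higher and 0 lower, with a median log2 fold change of 0.68. *Psat1*, *Psph* and *Shmt2* rose with log2 fold changes of 0.88, 0.76 and 0.73, while *Mthfd2* and *Phgdh*, the entry enzyme of serine synthesis, rose with 0.63 and 0.56. *Phgdh* had an adjusted p of 0.0652 without scrambled ASO replicate 1 and 0.0827 without Pgam ASO replicate 2, by edgeR's quasi-likelihood test under Benjamini-Hochberg adjustment. Of 8 other amino acid enzymes, 4 were higher and 0 lower, with a median of 0.52. *Gpt2*, a mitochondrial alanine aminotransferase, stood at 3.59 CPM, 3.88 CPM and 5.75 CPM in the scrambled ASO libraries and at 17.7 CPM, 17.7 CPM and 15.1 CPM in the Pgam ASO libraries. Its groups were far apart, with a log2 fold change of 1.94, and *Pycr1* and *Aldh18a1*, of proline synthesis, and *Bcat1*, a transaminase of branched amino acids, followed with 1.31, 0.70 and 0.59. *Bcat1* lost the call without scrambled ASO replicate 1 (adjusted p = 0.0644, the same edgeR test and adjustment), Pgam ASO replicate 1 (0.0723) or Pgam ASO replicate 2 (0.0935). Of 8 amino acid transport genes, 5 of the 7 tested were higher and 0 lower, with a median of 0.78. For these 3 lists 0 genes were lower with DESeq2, with limma-voom and at an unadjusted p under 0.05 with edgeR as well. The transport genes called had log2 fold changes of 1.70 for *Slc6a9*, 1.22 for *Slc7a5*, 1.15 for *Slc1a4*, 0.78 for *Slc3a2* and 0.36 for *Slc7a1*, and *Slc7a11*, the cystine carrier, had too few counts to test. Without Pgam ASO replicate 2 the transport count was 3 and the adjusted p of *Slc1a4* was 0.0534 by the same edgeR test and adjustment. *Slc7a1* passed narrowly with all libraries (0.0486) and lost the call without either replicate 1 or either replicate 2, with adjusted p-values of 0.116 to 0.169, and under 4 other alternatives (0.0503 to 0.0958).

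In 15 stress and feedback targets, of which 13 were tested, 3 were higher and 3 lower, with a median log2 fold change of 0.09. *Sesn2*, an inhibitor of mTORC1, stood at 28.4 CPM, 31.9 CPM and 31.6 CPM in the scrambled ASO libraries and at 60.3 CPM, 48.6 CPM and 47.6 CPM in the Pgam ASO libraries. It rose with a log2 fold change of 0.77, and *Tnfrsf10b* and *Eif4ebp1* both with 0.53. The 3 that fell were *Ppp1r15a*, already counted with the eIF2 phosphatase genes, and the death genes of the BCL2 family *Bcl2l11*, with a log2 fold change of -2.06, and *Bbc3*, with -0.94. *Ddit4*, which also limits mTORC1, had a log2 fold change of -0.11 and overlapping groups. *Fgf21* had a count of 0 in every library, which at a floor of 3 counts allows up to 0.192 CPM in the library of lowest depth and covers counting error only. Without Pgam ASO replicate 2 this list gave 1 gene higher and 0 lower, without scrambled ASO replicate 1 it gave 1 higher and 2 lower, and without Pgam ASO replicate 3 it gave 4 higher and 5 lower. DESeq2 called 5 higher and 4 lower, and limma-voom 3 higher and 4 lower. *Bcl2l11* lost the call without scrambled ASO replicate 1, Pgam ASO replicate 1 or Pgam ASO replicate 2, with adjusted p-values of 0.0772, 0.0853 and 0.110 by edgeR's quasi-likelihood test under Benjamini-Hochberg adjustment, and *Bbc3* without Pgam ASO replicate 2 (0.0558). *Bcl2l11* also lost it with no filter on low counts (0.110) and with the replicate block (0.0628). *Eif4ebp1* lost it without scrambled ASO replicate 1 (0.0655) or Pgam ASO replicate 2 (0.0734), and *Tnfrsf10b* without scrambled ASO replicate 1, scrambled ASO replicate 2, Pgam ASO replicate 1 or Pgam ASO replicate 2 (0.0621 to 0.107).

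For the other arms of the unfolded protein response, 8 of 14 genes were higher and 0 lower, against 8.03% and 9.15% of all tested genes, with a median log2 fold change of 0.42. *Sdf2l1*, *Xbp1* and *Manf* had the largest log2 fold changes, at 0.81, 0.75 and 0.66, and the chaperones *Pdia6*, *Hspa5* and *Hsp90b1* had 0.55, 0.45 and 0.37. This count was 0 without Pgam ASO replicate 2, 2 without scrambled ASO replicate 1 or Pgam ASO replicate 1, and 4 without scrambled ASO replicate 2. Of 8 genes for mitochondrial stress signalling edgeR and limma-voom called 1, *Hspa9*, which as 12.5% is near the 8.03% of all tested genes, while DESeq2 called 3 higher. *Hspa9* had a log2 fold change of 0.55 with edgeR against a median of 0.24 for the list. The edgeR count was 0 without scrambled ASO replicate 1, Pgam ASO replicate 1 or Pgam ASO replicate 2, and 3 without scrambled ASO replicate 3 or Pgam ASO replicate 3. *Dele1* and *Oma1*, which relay mitochondrial stress to eIF2 alpha, had log2 fold changes of -0.03 and 0.17. Of 20 cytosolic aminoacyl-tRNA synthetase genes 15 were higher and 0 lower, with a median log2 fold change of 0.48. *Cars*, *Yars* and *Aars* led with 0.82, 0.74 and 0.73, and *Wars*, *Sars* and *Farsa* were the least changed of those called with 0.31, 0.40 and 0.43. The count was 4 without Pgam ASO replicate 2 and 7 without scrambled ASO replicate 1 or Pgam ASO replicate 1. Of the unfolded protein, mitochondrial and synthetase genes 0 were lower with DESeq2, with limma-voom and at an unadjusted p under 0.05 with edgeR.

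**Figure D4:**
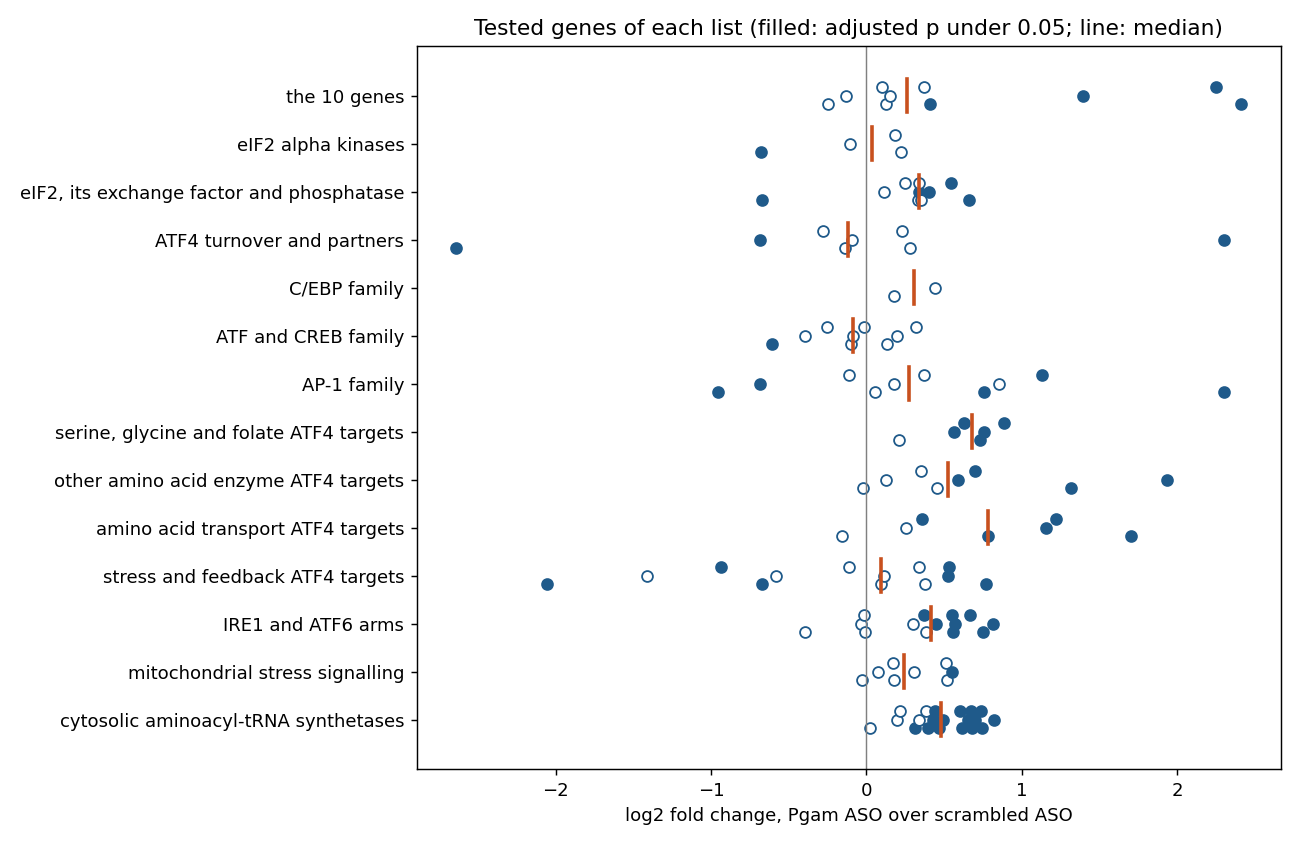
Log2 fold change (horizontal axis) of each tested gene in the 10-gene group and 13 related lists, filled where the adjusted p was under 0.05, with the median of each list as a line. Amino acid enzymes, carriers and synthetases lie mostly to the right of 0, and the stress and feedback targets on both sides.

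Markers were read to check the labelled cell type. The 9 CD4 T cell markers summed to 3583 CPM, 3770.5 CPM and 3396 CPM in scrambled ASO replicates 1, 2 and 3 and to 2972 CPM, 3017 CPM and 3097 CPM in Pgam ASO replicates 1, 2 and 3. *Cd4* was the most abundant, between 649 CPM and 802 CPM. The sum was lower in every Pgam ASO library, and *Cd28*, *Cd5* and *Trac* were called lower with log2 fold changes of -0.66, -0.49 and -0.30. Not all markers fell: *Lck* and *Cd2* overlapped between the groups, with log2 fold changes of 0.07 and 0.03. *Lck* had a mean of 495 CPM with the scrambled ASO and 519 CPM with the Pgam ASO, and *Cd2* had 446 CPM and 454 CPM. *Trac* lost the call without scrambled ASO replicate 1, scrambled ASO replicate 2, Pgam ASO replicate 1 or Pgam ASO replicate 2, and *Cd5* without scrambled ASO replicate 1 or Pgam ASO replicate 2, with adjusted p-values from edgeR's quasi-likelihood test under Benjamini-Hochberg adjustment of 0.0678 to 0.153. The count called lower was 6 without scrambled ASO replicate 3, 5 without Pgam ASO replicate 3 and 4 with DESeq2, and 7 of 9 had an unadjusted p under 0.05 with edgeR. The part of this shift in the results above was not tested.

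Markers of other cells were low. For 7 B cell markers the sums were 14.3 CPM, 14.4 CPM and 14.2 CPM in scrambled ASO replicates 1, 2 and 3 and 13.5 CPM, 12.7 CPM and 9.98 CPM in Pgam ASO replicates 1, 2 and 3, lower in every Pgam ASO library. *Ebf1* was the most abundant by its mean over all libraries, but stood below *Cd79a* in scrambled ASO replicate 2 and Pgam ASO replicate 3. For 12 myeloid markers, *Cd68* the most abundant, they were 11.6 CPM, 11.4 CPM and 9.53 CPM against 10.9 CPM, 9.03 CPM and 10.4 CPM in the same order. The groups overlapped for this sum, but single markers ran both ways. *Cd68* was lower in every Pgam ASO library (log2 fold change -0.57), and *Lyz2* was higher in every one (0.35). *S100a8*, *S100a9* and *Itgam* overlapped, with log2 fold changes of 0.89, 0.65 and -1.27. None of these myeloid markers was called by edgeR. The 6 mast cell and basophil markers summed to 6.40 CPM, 7.33 CPM and 7.61 CPM in scrambled ASO replicates 1, 2 and 3 and to 5.02 CPM, 5.51 CPM and 5.73 CPM in Pgam ASO replicates 1, 2 and 3. This sum was lower in every Pgam ASO library through *Kit*, the most abundant gene of the list in each scrambled ASO library, at 5.56 CPM ± 0.388 against 1.73 CPM ± 0.949 (SD, n = 3 each). Other markers of the list ran the other way: *Cpa3*, at 1.07 CPM ± 0.396 against 2.30 CPM ± 0.215, and *Mcpt8* and *Fcer1a*, both under 1 CPM, were higher in every Pgam ASO library. *Cpa3* stood above *Kit* in Pgam ASO replicates 1 and 2 and had an adjusted p of 0.0526 by edgeR's quasi-likelihood test under Benjamini-Hochberg adjustment. It passed with limma-voom, without scrambled ASO replicate 2 (0.0415) and with no filter on low counts (0.0399), where *Mcpt8* passed at 0.0166. The 6 CD8 T and NK cell markers summed to 66.1 CPM, 47.7 CPM and 68.1 CPM in the scrambled ASO libraries and to 48.6 CPM, 41.6 CPM and 42.2 CPM in the Pgam ASO libraries. These overlapped, and most of the sum was *Eomes*, which activated CD4 cells can also express. The NK cell marker *Klrb1c* had a count of 0 in every library, and the neutrophil marker *Ly6g* had 1 count in scrambled ASO replicate 3 and 0 in the others. In these lists *Cd8a* was called higher, with a log2 fold change of 1.12, and *Eomes* and *Kit* lower, with -0.82 and -1.68. *Cd8a* stood at 2.59 CPM ± 0.435 in the scrambled ASO libraries and at 5.64 CPM ± 1.76 in the Pgam ASO libraries (SD, n = 3 each). *Cd8b1*, the other CD8 gene, did not rise: it stood at 9.25 CPM ± 0.997 against 8.07 CPM ± 1.16. Its groups overlapped, with a log2 fold change of -0.20. *Klrk1* was higher in every Pgam ASO library, with 0.83, but was not called. *Cd8a* lost the call without scrambled ASO replicate 1 or Pgam ASO replicate 1, *Kit* without scrambled ASO replicate 1 or Pgam ASO replicate 2, and *Eomes* when any 1 of these 3 was left out, with adjusted p-values from the same edgeR test under Benjamini-Hochberg adjustment of 0.0506 to 0.100. What part these cells have in the results above was not tested.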

How the data were processed

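The values the authors deposited are estimated counts from Kallisto, whole and not normalized, with a row for each Ensembl gene; per the labels the build was GRCm38. The Kallisto version is not given in the sources used here. Of 56748 genes listed, 52073 had a symbol, and 28236 had a count of 0 in every library. Total counts ran from 15860476 to 18032805. In R 4.3.3 with edgeR 4.0.16, filterByExpr with its defaults kept 14936 genes, libraries were scaled by TMM (factors 0.9721 to 1.029), and the robust quasi-likelihood test, two-sided, was adjusted by Benjamini-Hochberg over all tested genes with a threshold of 0.05. The procedure was tested on simulated data, but the outcome is not given here and no result above rests on it. Exact permutation tests used scipy 1.17.1.

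The members and lists were chosen with earlier results of these data known. The genes named are the 10 members, the eIF2 alpha kinases, the C/EBP genes, up to 3 called genes with the largest and 3 with the smallest log2 fold change of each other pathway list (mean log2 CPM of at least 1), *Ppp1r15a*, *Sesn2*, *Ddit4*, *Hspa5*, *Phgdh*, *Pgam1*, *Pgam2* and the 3 genes nearest *Atf4* in profile. *Fgf21*, *Slc7a11*, *Dele1*, *Oma1* and the markers were named after their values were seen. One list of markers is not reported here. Sharing of 31-base stretches with other genes was measured on transcripts of GENCODE M21. Promoter windows came from RefSeq and were searched whole.

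Alternatives were DESeq2 1.42.0, limma-voom (limma 3.58.1), RLE size factors, library size alone, no filter, a minimum of 10 counts in all libraries, a block for the replicate number, leaving out 1 library at a time, an adjusted p under 0.01, members summed with genes sharing at least 10% of their 31-base stretches, and the motif without a free base. A search of only the 250 bases before each start was added after seeing the data. The study calls the 3 libraries of a group biological replicates. Whether each came from its own animal, and whether equal replicate numbers share an animal, is not given in the sources used here. The p-values therefore set a difference against the variation between these libraries. Whether that includes variation between animals cannot be told.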

Additional observations from a re-analysis of the deposited data

How the results depend on the processing

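*Asns* and *Chac1* passed and *Ddit3*, *Cebpb*, *Cebpg* and *Atf5* did not under every alternative run, each with a positive log2 fold change. Of 131 log2 fold changes of the 10 genes under alternatives, 123 kept their direction and side of the threshold, 6 lost the call (5 for *Atf4*, 1 for *Atf3*) and 2 changed sign: *Trib3*, from -0.25 to 0.0611 without scrambled ASO replicate 2, and *Nupr1*, from -0.13 to 0.0848 without scrambled ASO replicate 3. Leaving out 1 library, which leaves a group of 2, gave -0.42 to 0.06 for *Trib3* and -0.35 to 0.08 for *Nupr1*, between 2 and 4 of the 10 genes called higher, between 391 and 3484 of all genes called (2565 with all libraries), between 16 and 59 pathway list genes called higher (48 with all libraries) and between 2 and 11 called lower (8 with all libraries). An adjusted p under 0.01 gave 453 genes, 19 list genes higher and 5 lower, by the stricter threshold itself. The motif without a free base matched 3 of the 10 genes instead of 5, by its construction, and the bases before the start alone, chosen after seeing the data, matched 4. With the replicate block, 1235 genes were called, 5 list genes were lower and 3 of the 10 genes were higher, and *Atf4* had an adjusted p of 0.0759 by edgeR's quasi-likelihood test under Benjamini-Hochberg adjustment, within its range of 0.000642 to 0.132. Of other named genes, *Eif2s1*, *Eif2b5*, *Fos*, *Slc7a1*, *Tnfrsf10b*, *Manf*, *Hspa5*, *Hsp90b1*, *Eprs*, *Farsa*, *Wars*, *Trac* and *Cd8a* also lost the call with the block, *Eif2b5*, *Fos*, *Slc7a1* and *Wars* with limma-voom and with library size alone, and *Eif2s1*, *Eif2b5* and *Slc7a1* with at least 10 counts in every library. Deviations from the group mean correlated across genes at r = 0.05 for replicates 1, -0.03 for replicates 2 and -0.24 for replicates 3. Only scrambled ASO replicate 1 correlated best with its own number. The highest correlation was 0.28, between scrambled ASO replicate 2 and Pgam ASO replicate 3. The numbers were therefore not taken as paired. Causes of the other changes were not tested.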

Other observations

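The genes nearest *Atf4* in profile over the 6 libraries, among 6193 others with a mean log2 CPM of at least 5, were *Usp39*, *Psmd12* and *Eprs*. The root mean square difference of their centred log2 CPM from *Atf4* was 0.0118, 0.0180 and 0.0195, and their log2 fold changes were 0.42, 0.39 and 0.44. *Eprs* encodes the glutamyl-prolyl-tRNA synthetase, *Psmd12* a proteasome subunit and *Usp39* a splicing factor. By the same measure *Asns* stood at 0.515 from *Atf4*, at rank 5731, and *Cebpg*, which was not called, at 0.156, at rank 1846. The profiles were centred but not scaled, so a larger change in the same direction also counts as distance. The log2 fold change was 1.39 for *Asns*, 0.12 for *Cebpg* and 0.41 for *Atf4*.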
